A study of Mus musculus with 48 samples.

Results

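The genes described here are 10 targets of serum response factor (SRF) in the actin cytoskeleton: Srf itself, Actb, Actg1, Acta2, Tagln, Tagln2, Cnn2, Tpm1, Vcl and Myl9. They were chosen by symbol, and each symbol matched 1 Ensembl identifier among the 50600 genes listed. In all, 7 of the 10 passed the filter on low counts and were tested among 13889 genes. Acta2, Tagln and Myl9 stayed below that filter and are described by their counts.

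The cells were mPDAC, a mouse pancreatic ductal adenocarcinoma line whose labels give the genetic background FVB/N x C57BL6 and an age of 8 weeks for the source. They were left untreated (NT) or exposed for 48 h to 50 µM N6L, a synthetic antagonist of nucleolin, a protein that binds RNA and carries many tasks in the nucleolus and the cytoplasm. Poly(A) RNA was sequenced from the cytoplasm and from pooled polysomal fractions of the same lysate, for NT cultures 1, 2 and 4 and N6L cultures 1, 2 and 3, which gives 4 groups of 3 libraries. All cultures, controls included, received emetine before lysis, and nuclei and mitochondria were spun out. The 12 libraries held 19519911 to 44972333 counts. Levels are CPM, counts scaled to a common library total and between libraries by the TMM method. Each is a share of its library, and a change in total RNA per cell or in the number of cells cannot be told apart from them. Nothing in the labels says that numbered samples were grown independently, and the p-values measure the spread between these samples. In the cytoplasm of N6L culture 2, the description of 3 technical replicates names culture 1 while their titles name culture 2, and the titles were followed.

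SRF is a transcription factor that binds the CArG box, a run of A and T bases flanked by CC and GG. It works with a pair of cofactor families. The myocardin-related factors (MRTF) are held in the cytoplasm by monomeric actin and enter the nucleus when actin polymerises, and their targets are largely actins, actin-binding proteins and adhesion proteins. The ternary complex factors (TCF) of the Elk group respond to ERK signalling and act on immediate-early genes such as Egr1 and Fos. In smooth muscle, SRF with myocardin drives contractile genes, while in epithelial tumour cells its cytoskeletal targets are known for their part in adhesion and movement.

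The 5 promoters below are printed because each holds the CArG box, the sequence that SRF recognises. They are the 250 bases before the RefSeq transcription start on GRCm38.p6, 5′ to 3′ on the strand of the gene, with CArG boxes in capitals.
Srf, chr17:46556163-46556412, minus strand: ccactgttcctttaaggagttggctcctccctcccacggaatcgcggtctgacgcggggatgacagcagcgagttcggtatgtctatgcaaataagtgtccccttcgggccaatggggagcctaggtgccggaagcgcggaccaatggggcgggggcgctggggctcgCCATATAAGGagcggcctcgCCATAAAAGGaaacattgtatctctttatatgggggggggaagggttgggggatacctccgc
Actg1, chr11:120348496-120348745, minus strand: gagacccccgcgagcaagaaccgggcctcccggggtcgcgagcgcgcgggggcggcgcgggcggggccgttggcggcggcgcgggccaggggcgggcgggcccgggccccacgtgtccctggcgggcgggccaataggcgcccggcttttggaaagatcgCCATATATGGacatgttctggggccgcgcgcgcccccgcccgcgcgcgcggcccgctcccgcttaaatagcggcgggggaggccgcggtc
Cnn2, chr10:79988350-79988599, plus strand: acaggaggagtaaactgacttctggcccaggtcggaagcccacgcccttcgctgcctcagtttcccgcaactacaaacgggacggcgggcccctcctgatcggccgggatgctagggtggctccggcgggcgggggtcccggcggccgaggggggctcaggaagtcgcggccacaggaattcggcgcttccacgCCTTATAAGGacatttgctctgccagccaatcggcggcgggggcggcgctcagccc
Vcl, chr14:20929148-20929397, plus strand: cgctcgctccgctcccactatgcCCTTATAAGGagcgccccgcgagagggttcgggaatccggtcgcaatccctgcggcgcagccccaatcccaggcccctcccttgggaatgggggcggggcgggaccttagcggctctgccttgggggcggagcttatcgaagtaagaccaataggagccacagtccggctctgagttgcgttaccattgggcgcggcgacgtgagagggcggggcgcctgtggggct
Myl9, chr2:156775214-156775463, plus strand: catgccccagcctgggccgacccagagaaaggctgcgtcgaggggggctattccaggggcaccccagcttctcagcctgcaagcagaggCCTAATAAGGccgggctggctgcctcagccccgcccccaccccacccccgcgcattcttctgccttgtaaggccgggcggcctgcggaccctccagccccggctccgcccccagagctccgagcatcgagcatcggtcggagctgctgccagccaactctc
The table of promoters had entries for 8 of the 10 genes, all but Actb and Tagln. A CArG box was found in 5 of those 8 windows, against 1.47% of all 32851 promoters in the table. The genes were chosen as SRF targets, and SRF binds this box, so the difference is no independent result. Srf carried a pair of boxes, at bases 82 to 73 and 62 to 53 before its start, and Actg1 had 1 box at bases 90 to 81. The box of Cnn2 lay at bases 56 to 47, that of Vcl at 227 to 218 and that of Myl9 at 161 to 152. With at most 1 mismatch allowed, which includes the exact boxes, 7 of 8 windows and 18.6% of all promoters held a match. Tpm1 and Acta2 had only such near matches, CCATATATAG and CCAAAAAAGT in Tpm1 and CCCTATATGG and CCTTGTTTGG in Acta2, and Tagln2 had none in this window. The word GGGCGG, which SP1 factors bind, was in 7 of 8 windows (32.7% of all), and GGAATG, a word bound by TEAD factors, in 4 of 8 (12.6% of all). Both strands were searched, and no match of either word overlapped a CArG box in these windows. These counts describe letters and not binding. Of the 5 genes with a box, Srf, Actg1 and Vcl rose with N6L in the cytoplasm, Cnn2 was not called and Myl9 was not tested.

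Per length, the members spanned more than 4 orders of magnitude. Actb, which encodes the main cytoplasmic actin, had a mean of 4732 TPM over the 12 libraries and ranked 18 among all genes. TPM is a share of the library per length of merged exons. Tagln2, the transgelin of non-muscle cells, followed with 934 TPM. Tpm1, a tropomyosin that lies along actin filaments, had 378 TPM and Actg1, the other cytoplasmic actin, 360 TPM, and their ranges over the libraries (311 to 457 and 127 to 546) overlapped. Cnn2, a calponin of non-muscle cells, had 211 TPM, Srf 149 TPM and Vcl, which links integrin adhesions to actin, 71.6 TPM. Below Tagln2 each gene's range overlapped that of the next in this order, down to Srf (84.4 to 215 TPM) and Vcl (22.3 to 160 TPM). Actb, Tagln2 and Tpm1 were apart in every library, the lowest Actb level being 3989 TPM and the levels of Tagln2 841 to 1220 TPM.

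Acta2, Tagln and Myl9, the actin, transgelin and myosin light chain of smooth muscle, were close to absent from every library. Acta2 had 61 counts in all (1 to 10 per library), Tagln 42 (1 to 8) and Myl9 19 (0 to 5, with 5 of the 12 libraries at 0). Their highest levels in any library were 0.314, 0.256 and 0.150 CPM, where 3 counts correspond to 0.0667 to 0.154 CPM, so no comparison between groups was made. The antisense genes Gm48529 and Pcsk7 share 1241 and 108 exonic bases with Tagln and held 997 and 9037 counts. Without a stated strand option reads of such partners cannot be told apart, so the counts of Tagln could be too low or too high. Other markers of smooth muscle were as low. The summed level of the 6 markers Myh11, Des, Myocd, Lmod1, Synpo2 and Cnn1 ranged from 0.351 to 1.20 CPM over the libraries and 1 of the 6 passed the filter. The 8 fibroblast markers together reached 0.491 to 1.22 CPM, with Lum at 0 throughout and 2 of 8 past the filter. The 4 leukocyte and 3 endothelial markers reached at most 2.23 and 1.03 CPM. The 7 epithelial markers (Krt8, Krt18, Krt19, Krt7, Epcam, Cdh1 and Sox9) summed to 6427 to 10524 CPM, with 6 of 7 past the filter. The exception was Epcam, an adhesion protein of epithelia, at 5 counts or fewer in every cytoplasm library and 10 or fewer in every polysome library.

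In the cytoplasm, N6L moved the members in both directions. Vcl, Actg1 and Srf rose and Actb and Tpm1 fell, so 5 of 7 tested members passed an edgeR false discovery rate (FDR) of 0.05, where 28.3% of all tested genes did (14.5% higher and 13.8% lower). The median log2 fold change of the 7 was -0.21, against 0.04 over all tested genes. NT and N6L libraries did not overlap for 6 of the 7, against 54.9% of all genes. The count of 5 varied when single cultures were left out. It was 0 without N6L culture 2, 2 without NT culture 4 and 3 without NT culture 1 or N6L culture 1. It was 4 without N6L culture 3 and 5 without NT culture 2. Each leave-out also lowers the number of libraries, and the number of all genes called varied over these fits too (closing section). These shifts are therefore not shown to be particular to the members. With library totals alone as the scaling, the median of all genes moved to 0.19, 2588 of 3951 called genes were higher in place of 2013 of 3935, and no tested member changed direction.

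**Figure D1:**
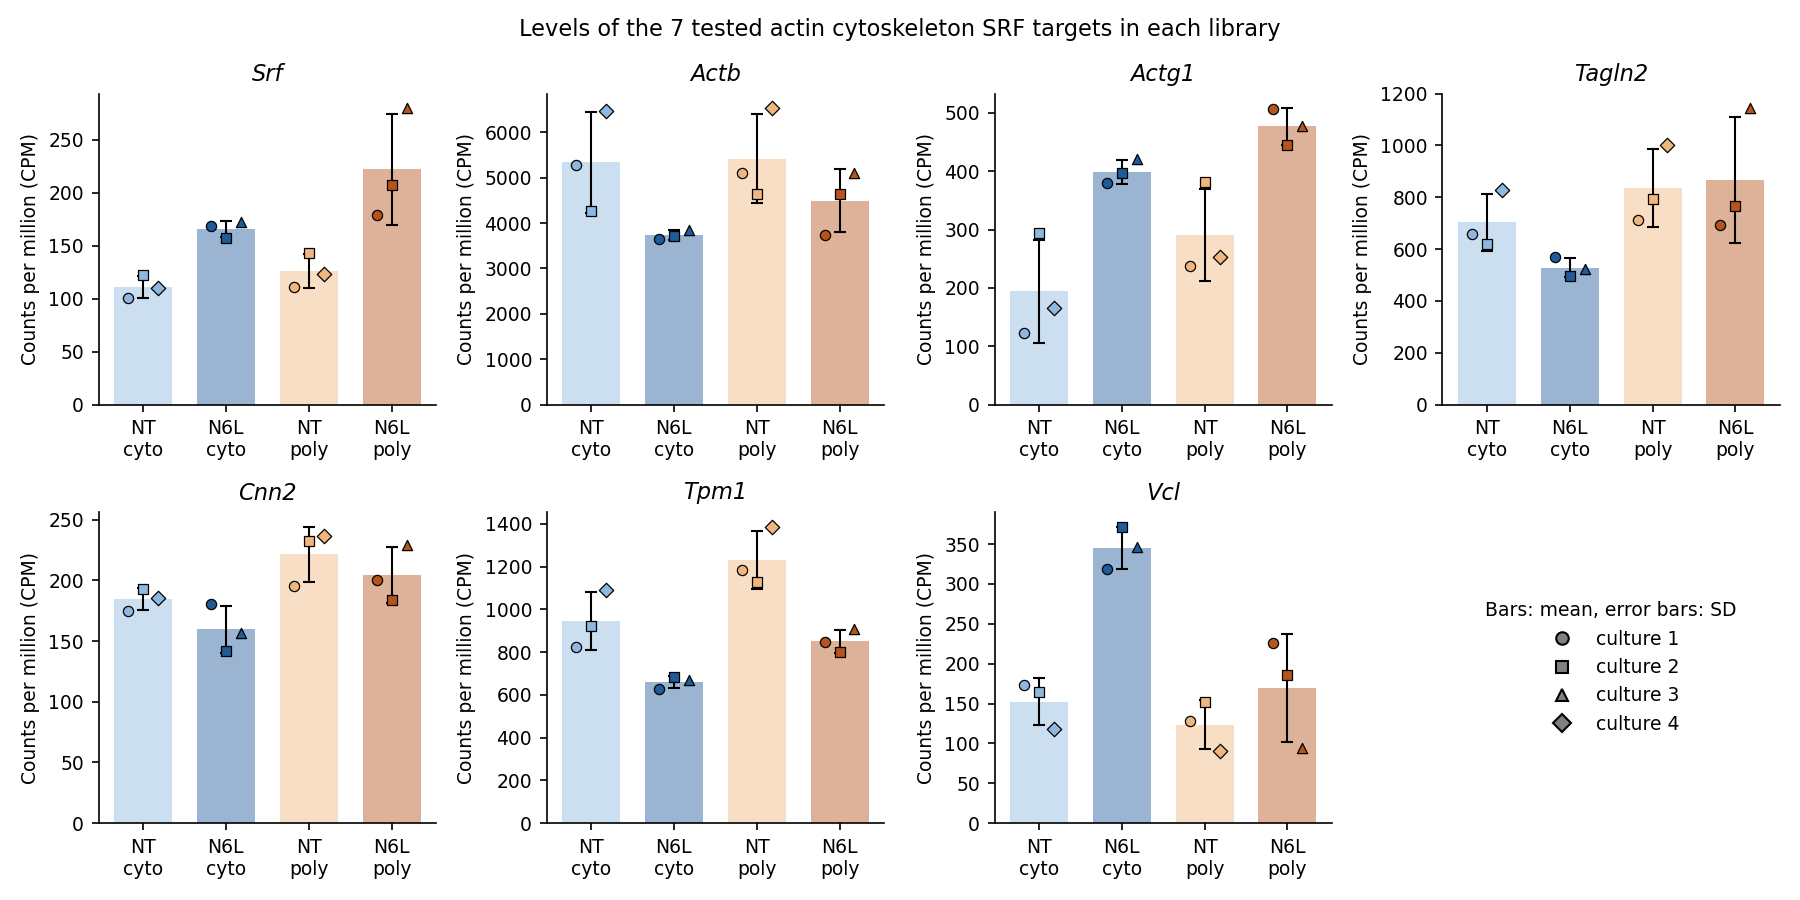
Level of each of the 7 tested genes (CPM, linear axis from 0) in the 12 libraries, by treatment and fraction, with a symbol for each culture, bars for the mean of 3 libraries and error bars for the SD. Srf, Actg1 and Vcl stand higher in all N6L cytoplasm libraries than in all NT cytoplasm libraries, and Actb, Tagln2 and Tpm1 lower.

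Srf (ENSMUSG00000015605, chr17:46548329-46556175), the transcription factor itself, rose in both fractions. In the cytoplasm it stood at 101, 122 and 110 CPM in NT cultures 1, 2 and 4 and at 169, 158 and 172 CPM in N6L cultures 1, 2 and 3. All 3 N6L libraries lay above all 3 NT libraries, and the rise was 1.50-fold (log2 0.58, SE 0.172, edgeR FDR 0.0235). On polysomes Srf stood at 112, 144 and 124 CPM in NT and at 179, 208 and 280 CPM in N6L. The groups again did not overlap, N6L culture 3 being the highest, and the rise was 1.76-fold (log2 0.81, SE 0.173, edgeR FDR 0.0120). The cytoplasmic call was lost without NT culture 1 (FDR 0.0950), NT culture 4 (0.0797) or N6L culture 2 (0.105), and the log2 value lay between 0.48 and 0.80 over 16 alternatives.

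The actins went in opposite directions. Actb (ENSMUSG00000029580, chr5:142903115-142906754) had 5271, 4259 and 6469 CPM in the NT cytoplasm and 3638, 3724 and 3856 CPM in the N6L cytoplasm. Every N6L library was below every NT library, and the fall was 1.43-fold (log2 -0.51, SE 0.182, edgeR FDR 0.0479). This call lay near the limit and was kept in 8 of 16 alternatives. On the per-length scale the groups overlapped, at 5076 ± 509 TPM in NT and 4808 ± 148 TPM in N6L (SD, n = 3 each). On polysomes Actb had 5094, 4636 and 6525 CPM in NT and 3738, 4636 and 5097 CPM in N6L, with overlap and no call (log2 -0.27, SE 0.181, edgeR FDR 0.366).

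Actg1 (ENSMUSG00000062825, chr11:120345690-120348542) stood at 123, 294 and 165 CPM in the NT cytoplasm and at 379, 397 and 421 CPM in the N6L cytoplasm. NT culture 2 was the highest of the controls and still below all treated libraries. The rise was 2.06-fold (log2 1.04, SE 0.262, edgeR FDR 0.0118), the call being lost without NT culture 4 (FDR 0.0569) or N6L culture 2 (0.0656). On polysomes it had 237, 381 and 252 CPM in NT and 507, 445 and 477 CPM in N6L. The groups did not overlap there, but the difference missed the limit (log2 0.71, SE 0.261, edgeR FDR 0.0972), and it passed in 2 of 16 alternatives, without NT culture 2 (log2 0.96, FDR 0.0110) and with no filter on low counts (log2 0.72, FDR 0.00483). Processed pseudogenes with at least 90% identity to Actg1 over at least 200 bases numbered 10 and held 646 counts, 0.515% of the 124751 counts of Actg1, and the 1 such copy of Actb held 0. How reads shared between such copies, or between Actb and Actg1, were counted is not given in the sources used here.

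The ratio of Actb to Actg1, each per length, set both changes side by side within a library. It was 42.5, 14.4 and 38.9 in the NT cytoplasm and 9.52, 9.30 and 9.09 in the N6L cytoplasm. On polysomes it was 21.3, 12.1 and 25.6 in NT and 7.31, 10.3 and 10.6 in N6L. The ratio was thus higher in every NT library than in any N6L library of the same fraction, by a geometric mean of 3.09-fold in the cytoplasm and 2.02-fold on polysomes. Exact two-sided permutation tests gave p = 0.1 in each fraction (also after adjustment for 2 comparisons), the smallest p that 3 libraries against 3 allow. NT culture 2 lay nearest to the treated libraries in both fractions, and the N6L cytoplasm had an SD of 0.211 where the NT cytoplasm had 15.3.

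**Figure D2:**
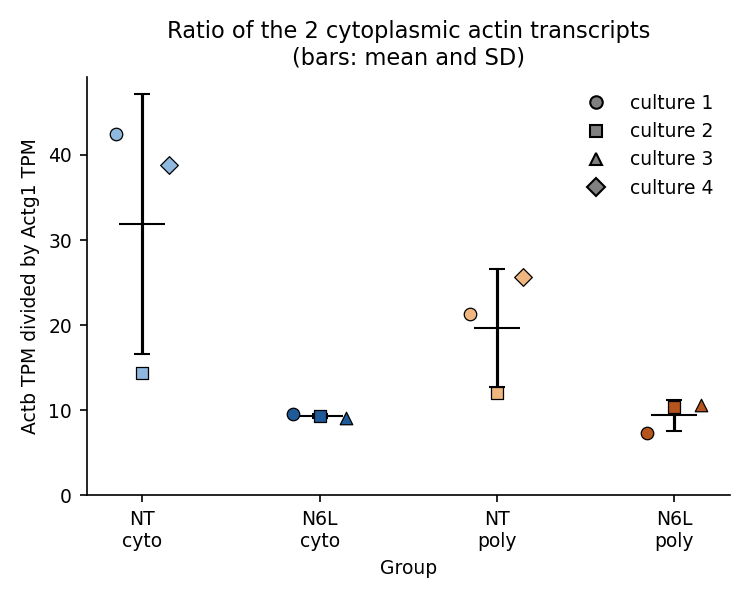
Actb TPM divided by Actg1 TPM (linear axis from 0) in each library by group, with a symbol for each culture and bars for mean and SD. The 3 N6L cytoplasm libraries sit between 9.09 and 9.52, and the NT cytoplasm libraries range from 14.4 to 42.5.

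The calponin and transgelin of non-muscle cells did not pass the limit. Tagln2 (ENSMUSG00000026547, chr1:172500047-172507380) had 659, 622 and 827 CPM in the NT cytoplasm and 569, 495 and 521 CPM in the N6L cytoplasm. These groups did not overlap, yet the difference was not called (log2 -0.41, SE 0.198, edgeR FDR 0.129), except in the fit of only these 2 groups (FDR 0.0340). Per length the cytoplasmic means of Tagln2 were 864 ± 19.9 TPM in NT and 874 ± 52.2 TPM in N6L (SD, n = 3 each), so the direction turned with the scale. On polysomes it had 711, 795 and 1002 CPM in NT and 694, 765 and 1143 CPM in N6L, a full overlap with a log2 difference of 0.05 (SE 0.198, edgeR FDR 0.894). Cnn2 (ENSMUSG00000004665, chr10:79988584-79996062) overlapped in both fractions. It had 175, 193 and 185 CPM in the NT cytoplasm and 181, 142 and 157 CPM in the N6L cytoplasm (log2 -0.21, SE 0.147, edgeR FDR 0.296). Its polysomal values were 195, 233 and 236 CPM in NT and 201, 184 and 229 CPM in N6L (log2 -0.12, SE 0.147, edgeR FDR 0.659). Per length the direction turned for Cnn2 as well, with means of 194 ± 27.1 TPM in NT and 223 ± 24.5 TPM in N6L in the cytoplasm and of 212 ± 26.2 and 216 ± 15.2 TPM on polysomes (SD, n = 3 each).

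Tpm1 (ENSMUSG00000032366, chr9:67022590-67049406) was the member that fell in both fractions. In the cytoplasm it had 822, 924 and 1092 CPM in NT and 626, 681 and 671 CPM in N6L. The treated libraries were all below the controls, by 1.43-fold (log2 -0.52, SE 0.145, edgeR FDR 0.0183). This call was kept in 13 of 16 alternatives, with FDR values up to 0.0597. On polysomes it had 1182, 1128 and 1386 CPM in NT and 845, 799 and 906 CPM in N6L, again without overlap, a fall of 1.45-fold (log2 -0.53, SE 0.145, edgeR FDR 0.0344). The polysomal call was lost when any culture but N6L culture 3 was left out (FDR 0.0548 to 0.189), with log2 values of -0.59 to -0.43 over the 16 alternatives. Per length, its cytoplasmic groups overlapped, with means of 374 ± 28.0 TPM in NT and 350 ± 20.9 TPM in N6L (SD, n = 3 each). Its polysomal means were 445 ± 12.6 and 342 ± 31.1 TPM.

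Vcl (ENSMUSG00000021823, chr14:20929398-21033676) had the largest cytoplasmic change of the members. It stood at 174, 164 and 118 CPM in the NT cytoplasm and at 318, 371 and 346 CPM in the N6L cytoplasm. The lowest treated library was well above the highest control, a rise of 2.27-fold (log2 1.18, SE 0.274, edgeR FDR 0.00800), kept in 15 of 16 alternatives and lost without N6L culture 2 (FDR 0.0534). On polysomes it had 128, 152 and 90.3 CPM in NT and 226, 186 and 94.6 CPM in N6L. N6L culture 3 fell within the NT range there, and the difference was not called (log2 0.45, SE 0.271, edgeR FDR 0.309). Vcl shares 2090 exonic bases with the antisense gene Ap3m1, whose cytoplasmic level was 46.5 ± 5.66 CPM in NT and 37.7 ± 2.24 CPM in N6L and whose polysomal level was 38.0 ± 5.93 and 23.9 ± 6.79 CPM (SD, n = 3 each). Like Vcl, Ap3m1 stood lower on N6L polysomes than in the N6L cytoplasm, and its part in the values of Vcl was not tested. The merged exons of Vcl are the longest of the 10 genes, at 8191 bases.

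On polysomes 2 of 7 tested members were called, Srf higher and Tpm1 lower, where 9.67% of all tested genes were called (6.01% higher and 3.66% lower). Libraries of the 2 treatments did not overlap for 3 of 7, against 25.6% of all genes. The median log2 fold change of the members was 0.05, against 0.00081 over all tested genes. The count of 2 became 0 without NT culture 1, without N6L culture 2 or with only the polysomal groups in the fit. It became 1 without NT culture 4 or N6L culture 1. The number of all genes called varied over these fits too (closing section), so these shifts are not shown to be particular to the members. Both fractions of a culture come from one lysate, so the fractions are not independent measurements.

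**Figure D3:**
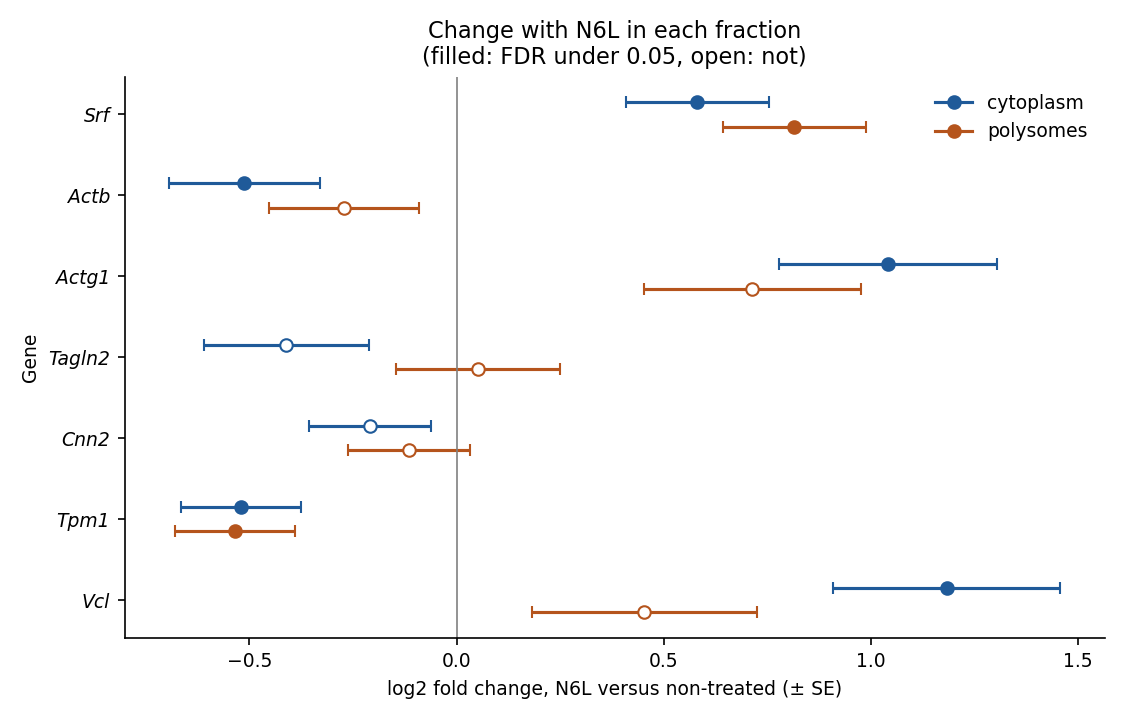
Log2 fold change of N6L against non-treated cells (x axis, bars are SE) for the 7 tested genes in the cytoplasm and on polysomes, filled where the edgeR FDR was under 0.05. Srf lies to the right and Tpm1 to the left in both fractions, and Vcl and Actg1 are filled in the cytoplasm and open on polysomes.

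The level of each transcript on polysomes was compared with that in the cytoplasm within treatments. Each level is relative to its own library, so a ratio gives no absolute amount on polysomes. The study reports a strong decrease of polysome peaks under N6L, which these ratios do not measure. In non-treated cells 0 of 7 members differed between polysomes and cytoplasm with edgeR, where 0.209% of all tested genes did (29 genes, with 1855 at an unadjusted p under 0.05). Of the members, Tpm1 and Actg1 were among those 1855. The DESeq2 fit gave 281 genes and 0 members. Actg1 had log2 polysome to cytoplasm ratios of 0.95, 0.38 and 0.61 in NT cultures 1, 2 and 4 (fitted log2 0.58, SE 0.261, edgeR FDR 0.356), and with the lysate as a block it passed (log2 0.64, FDR 0.0457), as did 1.46% of all tested genes. Tpm1 had ratios of 0.52, 0.29 and 0.34, above 0 in every culture (fitted log2 0.38, SE 0.145, edgeR FDR 0.285). With the lysate block and a correction for length and GC content together, Tpm1 passed in place of Actg1 (log2 0.43, FDR 0.0416), as did 5.50% of all tested genes.

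In N6L cells, Tagln2 stood higher on polysomes than in the cytoplasm and Vcl lower, so 2 of 7 members were called. Of all tested genes 39.0% were called (18.4% higher on polysomes and 20.6% lower). Vcl had log2 ratios of -0.49, -0.99 and -1.87 in N6L cultures 1, 2 and 3, against -0.43, -0.11 and -0.39 in NT cultures 1, 2 and 4. It was below 0 in all 6 cultures. Under N6L the polysomal level of Vcl was 2.04-fold lower than its cytoplasmic level, each relative to its library (log2 -1.03, SE 0.273, edgeR FDR 0.0116). Tagln2 had ratios of 0.28, 0.63 and 1.13 under N6L and 0.11, 0.36 and 0.28 in NT, and was 1.64-fold higher on polysomes under N6L (log2 0.71, SE 0.199, edgeR FDR 0.0142). For both genes N6L culture 3 lay farthest from 0 and N6L culture 1 within or next to the NT range. Both calls were lost without N6L culture 2 (Tagln2 FDR 0.0639, Vcl FDR 0.0691) or N6L culture 3 (0.142 and 0.0654).

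With the lysate as a block, 5 of 7 members were called in N6L cells, as Srf (log2 0.39, FDR 0.0244), Cnn2 (0.36, FDR 0.0207) and Tpm1 (0.37, FDR 0.0125) joined with higher polysomal levels. That fit called 7460 of the 13889 genes, 53.7% of all tested. DESeq2 also called 5 members, where it called 6058 genes or 43.6%. A correction for length and GC content moved these values. With an offset for both beside the lysate block, Tagln2 came to log2 0.18 (FDR 0.131) and Srf and Cnn2 to -0.11 and -0.04, while Vcl stayed lower (-0.64, FDR 0.00652) and Tpm1 higher (0.63, FDR 0.00188). These 2 members were called in that fit beside 40.4% of all genes. The merged exons are 2082 bases long in Tagln2, 2893 in Srf, 2460 in Cnn2, 6485 in Tpm1 and 8191 in Vcl. The offset is itself fitted on length and GC content, so it shifts genes by length. A part of length in the differences between fractions was not tested.

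The translational index, the N6L ratio of polysomes to cytoplasm over the NT ratio, had no member past the limit. With edgeR it called 0 of 7 members and 0 genes in all, 0.0% of those tested. At an unadjusted edgeR p under 0.05 there were 1074 genes and 0 members, and DESeq2 called 0 genes. The study reports genes with a significantly changed index by its own calculation and cut-off, which were not repeated here. Vcl was the lowest, with a log2 index of -0.73 (SE 0.383, unadjusted edgeR p 0.0773, FDR 0.555). Tagln2 was the highest, at 0.46 (SE 0.280, edgeR FDR 0.555), and the other 5 lay between -0.33 for Actg1 and 0.24 for Actb. The median over members was 0.09, against 0.01 over all tested genes. A ratio of Vcl or Tagln2 called under N6L and not in NT is therefore not shown to differ between the treatments.

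**Figure D4:**
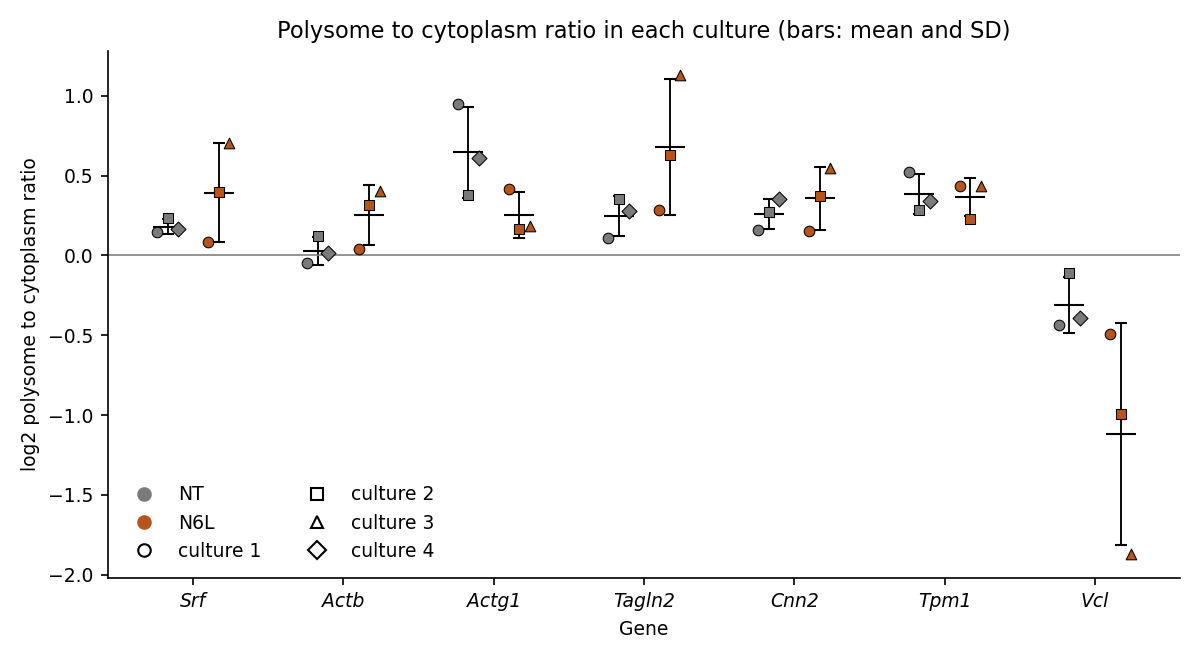
Log2 ratio of polysomal to cytoplasmic CPM (y axis) for the 7 tested genes in each culture, NT and N6L side by side, with a symbol for each culture and bars for mean and SD. Vcl is below 0 in all 6 cultures and reaches -1.87 in N6L culture 3, and Tagln2 reaches 1.13 in that culture.

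Across the 12 libraries the members did not vary as one group. Srf and Actg1 followed the mean of the 7 centred log2 CPM profiles most closely (Pearson r 0.862 and 0.874). Cnn2 and Tagln2 followed it less (0.428 and 0.410), and Tpm1, Vcl and Actb hardly (-0.02, -0.08 and -0.23). Each member is itself part of that mean, which adds to its r. Vcl ran opposite to Tagln2 (r -0.912), Tpm1 (-0.866), Actb (-0.864) and Cnn2 (-0.806), while Srf and Actg1 ran together (0.847). The genes outside the members that were most like their mean were Stx2 (0.973), Map2k5 (0.969), Kctd10 (0.961), 9330160F10Rik (0.955) and Nkain4 (0.951). These values describe 12 libraries that share lysates, treatments and depth.

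Of 6 SRF cofactor genes 5 were tested, and 1 of them, Mrtfb, rose in the cytoplasm (median log2 0.19), where 14.5% of all tested genes did. Mrtfb, a coactivator of the MRTF family, rose from 23.3 ± 4.82 CPM in NT to 46.7 ± 1.73 CPM in N6L (SD, n = 3 each, log2 1.00, SE 0.279, edgeR FDR 0.0184). On N6L polysomes it was at 21.0 ± 9.32 CPM, lower than in the cytoplasm (log2 -1.15, edgeR FDR 0.00817). Mrtfa, its close relative, did not pass in the cytoplasm (log2 0.19, edgeR FDR 0.330), nor did the TCF genes Elk1 (0.14), Elk3 (0.19) and Elk4 (-0.32). Elk4 was lower on N6L polysomes than on NT polysomes (log2 -0.59, edgeR FDR 0.0234), the 1 cofactor called there, beside 3.66% of all genes lower. Myocd, which encodes myocardin, stayed below the filter at 0 to 6 counts per library.

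Other genes of the same protein families were measured beside the members. Of 9 further actins, calponins, transgelins and tropomyosins, 5 were tested, and in the cytoplasm 1 rose and 1 fell (median log2 0.07), against 14.5% of all genes higher and 13.8% lower. Acta1, the actin of skeletal muscle, rose from 1.37 ± 0.393 CPM to 5.96 ± 4.39 CPM (SD, n = 3 each, log2 2.13, SE 0.562, edgeR FDR 0.0146) and also on polysomes (log2 2.68, edgeR FDR 0.0120), at levels far below those of Actb and Actg1 per length. N6L culture 1 was the highest library for Acta1, at 11.0 CPM in the cytoplasm against 3.17 and 3.69 CPM in N6L cultures 2 and 3. Without that culture the cytoplasmic value was log2 1.35 (edgeR FDR 0.0428) and the polysomal value 2.14 (FDR 0.0114). The polysomal call was lost without NT culture 1 (log2 2.30, edgeR FDR 0.0656). Tpm2 fell from 201 ± 69.6 to 102 ± 8.45 CPM (SD, n = 3 each, log2 -0.99, edgeR FDR 0.0106). The most abundant of them per length, Tpm4, was at log2 0.07 (edgeR FDR 0.696) and Tpm3 at -0.42 (edgeR FDR 0.0724). In the cytoplasm Acta1 thus rose like Actg1, and Tpm2 fell like Tpm1.

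Of 25 other contractile and adhesion genes of the MRTF-SRF program, 24 were tested, 2 rose and 2 fell in the cytoplasm (median log2 0.21), against 14.5% and 13.8% of all genes, and on polysomes edgeR called 0 between treatments (5 at an unadjusted p under 0.05, 2 by DESeq2). Mical2, an enzyme that oxidises and disassembles actin filaments, rose from a mean of 69.8 to 138 CPM (log2 0.98, edgeR FDR 0.00191) and Lima1, which cross-links filaments, from 122 to 214 CPM (0.81, edgeR FDR 0.0128). Pdlim7, a LIM protein of stress fibres, fell from 127 to 85.8 CPM (-0.57, edgeR FDR 0.0173). The myosin light chain Myl12a fell (-0.50, edgeR FDR 0.0475), while Myl6 was at -0.73 with an FDR of 0.0599. Between fractions under N6L, 9 of the 24 were lower and 4 higher on polysomes, where 20.6% of all tested genes were lower and 18.4% higher. Myh9, the heavy chain of non-muscle myosin, was lower (log2 -1.50, edgeR FDR 0.00758), as was the LIM protein gene Lpp (-1.26, edgeR FDR 0.0122), and Myl6 was higher (1.17, edgeR FDR 0.00763).

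Among 14 actin monomer and turnover factors, 4 fell and 2 rose in the cytoplasm (median log2 -0.17), against 13.8% of all genes lower and 14.5% higher. Tmsb10, a thymosin that binds monomeric actin, fell from a mean of 2037 to 862 CPM (log2 -1.24, edgeR FDR 0.0137). The profilin Pfn1, which feeds monomers to growing filaments, fell from 1883 to 888 CPM (-1.08, edgeR FDR 0.0131) and the cofilin Cfl1, which severs filaments, from 2117 to 1106 CPM (-0.94, edgeR FDR 0.00506). Tmsb4x, the most abundant of the list per length, fell as well (-0.67, edgeR FDR 0.0396). On polysomes edgeR called 0 of the 14 between treatments (5 at an unadjusted p under 0.05, 3 by DESeq2, median log2 -0.17). Between fractions under N6L, 3 of the 14 were higher and 1 lower on polysomes, against 18.4% and 20.6% of all genes. Pfn1 (log2 0.84), Twf2 (0.77) and Cfl1 (0.66) were higher there, and Twf1, a relative of cofilin that binds actin monomers, was lower (-0.46, edgeR FDR 0.0325).

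In the Arp2/3 complex, which nucleates branched actin, 4 of 9 subunit genes fell and 0 rose in the cytoplasm (median log2 -0.41), where 13.8% of all genes fell. On polysomes 1 of 9 fell, against 3.66% of all genes. Arpc5l fell in both, from a mean of 201 to 101 CPM in the cytoplasm (log2 -0.99, edgeR FDR 0.00173) and from 257 to 159 CPM on polysomes (-0.69, edgeR FDR 0.0167). Arpc3 (-0.69) and Arpc5 (-0.44) fell in the cytoplasm, and the most abundant subunit, Arpc2, was at -0.04 (edgeR FDR 0.846).

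Of the immediate-early genes, targets of SRF through the TCF arm, 7 of 9 rose with N6L in each fraction and 0 fell (median log2 1.40 in the cytoplasm and 1.39 on polysomes). Of all tested genes, 14.5% rose in the cytoplasm and 6.01% on polysomes. The list was chosen with earlier results of these data known, so its share is no independent test. The genes that did not pass were Ier2 and Mcl1 in the cytoplasm (edgeR FDR 0.0835 and 0.273) and Fosb and Mcl1 on polysomes (0.0893 and 0.259). Egr3 rose from a mean of 1.09 to 25.8 CPM in the cytoplasm (log2 4.57, edgeR FDR 0.000203), Egr2 from 9.97 to 82.6 CPM (3.05, edgeR FDR 0.000697) and Nr4a1 from 54.9 to 320 CPM (2.54, edgeR FDR 0.000493). All 3 encode transcription factors. The most abundant of the list per length, Ier2 and Junb, were at log2 0.61 (edgeR FDR 0.0835) and 0.60 (edgeR FDR 0.0436) in the cytoplasm. Srf rose by log2 0.58 and 0.81 in the 2 fractions, values at the low end of the immediate-early genes (0.23 to 4.57 in the cytoplasm).

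**Figure D5:**
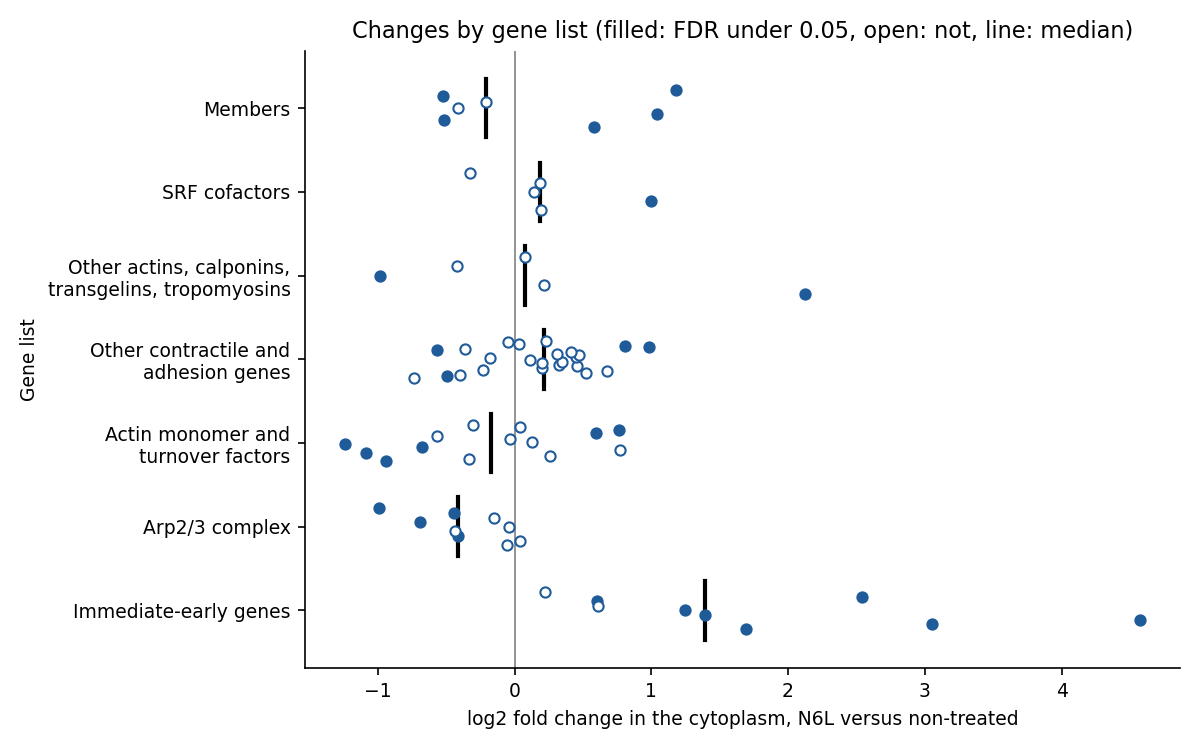
Log2 fold change in the cytoplasm, N6L against non-treated cells (x axis), for each tested gene of the 10 members and of 6 related gene lists (y axis), filled where the edgeR FDR was under 0.05, with a line at the median. The members lie on both sides of 0, the Arp2/3 genes mostly below it and the immediate-early genes all above it, from 0.23 to 4.57.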

How the data were processed

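Raw counts per gene were deposited by the authors for 4 technical replicates of each of 12 libraries, not normalized. Per the labels and the methods of the study, base calls came from bcl2fastq 2.18.0.12, reads were aligned with STAR to mm10 and counted with HTSeq 0.5.3. Sources used here name no strand option, annotation release or rule for reads with several matches. Symbols, positions, merged exon lengths and GC content came from GENCODE vM21 (GRCm38), where 50376 of the 50600 listed genes were found, and 0 rows named no gene.

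Technical replicates were summed. Their chi-square per degree of freedom was close to 1, so they differed by little more than counting noise and count as 1 library. In R 4.3.3, edgeR 4.0.16 kept 13889 genes (filterByExpr), applied TMM scaling and gave quasi-likelihood tests with 1 mean per group over all 12 libraries. P-values were adjusted over all genes tested by the Benjamini-Hochberg method (limit 0.05). DESeq2 1.42.0 was the alternative tool. Only the edgeR fit was tested on simulated counts, drawn as independent libraries. Log2 CPM and ratios per culture used a prior count of 2. TPM used the counts and merged exon lengths, with no TMM scaling. Floors (3 counts) cover counting error only, while SD and SE values include the spread between libraries. The common biological coefficient of variation was 0.197.

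Groups came from the labels, and the dose from the methods of the study. Cytoplasm and polysomes of a culture are paired because they share a lysate. Their deviations from group means correlated by 0.364 to 0.645 among NT cultures and by 0.0368 to 0.229 among N6L cultures. The lysate as a block was an alternative. Other alternatives were RLE size factors, library totals, no filter or at least 10 counts in every library, technical replicate a alone, omission of the 3 technical replicates whose labels disagree, an offset for length and GC content (13867 genes had both), only the groups compared, each culture left out and a prior count of 0.5. The lysate block with the length and GC offset was added after seeing the data.

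The members and gene lists were chosen with earlier results of these data known. All members and SRF cofactors are named, and of each other list up to 3 genes with the largest called change and the 2 most abundant per length. Copies of members were sought with BLAST of transcripts. Promoters came from RefSeq (GRCm38.p6). One gene list was measured and is not reported here.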

Additional observations from a re-analysis of the deposited data

How the results depend on the processing

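The cytoplasmic changes of the 7 tested members and the polysomal changes of all but Tagln2 kept their direction on the fitted log2 scale under 16 alternatives each. Per length, the means of Tagln2 and Cnn2 in the cytoplasm and of Cnn2 on polysomes turned to slightly higher in N6L. Over all 5 comparisons, 496 of the members' alternative values kept direction and side of the limit, 33 lost and 17 gained a call and 28 changed sign. The cause of these shifts was not tested.

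Leaving out each culture in turn gave 1295 to 4042 genes and 0 to 5 members in the cytoplasm, 146 to 1579 genes and 0 to 2 members on polysomes, 0 to 335 genes and 0 members between fractions in NT, 1153 to 5861 genes and 0 to 3 members in N6L, and 0 to 1 genes and 0 members for the index. Signs changed in these fits for Tagln2 on polysomes (-0.20 to 0.22), Actb between NT fractions (-0.014 to 0.058), and Cnn2 (-0.0091 to 0.20) and Tpm1 (-0.058 to 0.095) in the index.

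On polysomes, DESeq2 gave 2034 genes, technical replicate a alone 895, the length and GC offset 2726 and the fit of only the polysomal groups 328 with 0 members. Between fractions in NT, no filter gave 647 genes, DESeq2 281, technical replicate a alone 18, the length and GC offset 92 and the fit of only the NT groups 139. In N6L, DESeq2 gave 5 members and the length and GC offset 3337 genes. For the index, no filter gave 114 genes. With library totals alone, 1082 of 1394 called polysomal genes were higher in place of 835 of 1343, and 1762 of 4881 between N6L fractions in place of 2559 of 5415, where the median of all genes moved from 0.03 to -0.11.

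The lysate as a replicate block gave 203 genes and 1 member in NT and 7460 genes and 5 members in N6L. With the length and GC offset beside the lysate block there were 763 genes and 1 member in NT and 5604 and 2 in N6L, and the index had 0 in each of these fits. The culture number as a block across treatments, which share only a number, changed no count of members (4737 genes in the cytoplasm and 1355 on polysomes).

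Signs changed under library totals for Actb between NT fractions (-0.052). Under the length and GC offset, without and with the lysate block, they changed for Actb between NT fractions (-0.092 and -0.088), for Srf (-0.11 and -0.11), Actb (-0.0059 and -0.012), Actg1 (-0.070 and -0.077) and Cnn2 (-0.039 and -0.036) between N6L fractions, and for Srf (-0.19 and -0.19), Cnn2 (-0.14 and -0.14) and Tpm1 (0.22 and 0.20) in the index. The same offset alone gave -0.068 for Tagln2 on polysomes. Tpm1 in the index, at -0.014, became 0.0029 with RLE size factors, 0.0028 with DESeq2 and 0.0037 with technical replicate a alone. A prior count of 0.5 moved 1 ratio, that of Myl9 in N6L, a gene with at most 5 counts per library (mean log2 -0.81 in place of -0.37). Low counts kept Acta2, Tagln, Myl9, Myocd and other listed genes below the filter from being tested.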
